A study of Bos taurus with 16 samples.

Results

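The 37 genes of the bovine mitochondrial genome were examined in the prefrontal cortex (PFC) of cattle. They are all the genes that the deposited annotation places on the mitochondrial chromosome (MT), out of 27607 genes in all, and comprise 2 ribosomal RNA (rRNA) genes, 13 protein genes and 22 transfer RNA (tRNA) genes. The animals were 16 uncastrated male cattle, 8 of the Lidia breed, labelled aggressive, and 8 of the Wagyu breed, labelled non-aggressive. The animals carry the names of the labels, Agg for Lidia and Non_agg for Wagyu. All were 3 years old except Agg_8174, aged 4 years. The Lidia bulls came from 2 farms, La Quinta (Agg_8312, Agg_8314, Agg_8320 and Agg_8324) and Montealto (Agg_8162, Agg_8165, Agg_8171 and Agg_8174), and the Wagyu from 1 farm, Nuestro Buey. The Lidia bulls were sampled after a bullfight and the Wagyu at a slaughterhouse, so breed, farm, rearing and the circumstances of death cannot be told apart. Each animal gave 1 poly(A)-selected library made with a stranded kit.

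Mitochondrial DNA is a small circular molecule that carries the core subunits of the respiratory chain. Complex I (NADH dehydrogenase) takes its ND subunits from it, complex III takes cytochrome b, complex IV (cytochrome c oxidase) takes COX1 to COX3, and complex V (ATP synthase) takes ATP6 and ATP8. All other subunits are encoded in the nucleus. Both strands are transcribed as long precursors that are cut at the tRNAs, so genes of the same strand begin as 1 RNA and differ afterwards in processing, polyadenylation and decay. Most genes lie on 1 strand, and among the protein genes ND6 alone lies on the other. In mammals the ND6 messenger largely lacks the poly(A) tail that the other mitochondrial messengers carry. Cortical neurons have a high demand for ATP and express these genes at high levels.

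In the annotation 28 of the 37 genes lie on the plus strand of MT, and 9 on the minus strand, namely ND6 and 8 tRNA genes. The positions below refer to the ARS-UCD1.2 build, and start and end of all 37 genes were the same in the RefSeq table of a later assembly. Several neighbours overlap. ATP8 and ATP6 share 40 bases, ND4L and ND4 share 7 bases, and ND5 (MT:12109-13929, plus strand) shares 17 bases with ND6 (MT:13913-14440, minus strand).

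The values are FPKM, fragment counts scaled to transcript length and to the mapped fragments of the animal. In Non_agg_5 and Agg_8324 the summed FPKM was 567732 and 439325, against 172575 to 244276 in the other 14 animals. The fragments behind it were estimated from the ratio of coverage to FPKM, with 200 bases assumed per fragment. They numbered 7.67 M and 13.7 M against 20.02 M to 37 M (M, 10 to the power 6). Comparisons between animals therefore used rescaled FPKM, in which each animal was divided by the median, over genes, of its ratio to the geometric mean of all animals. The factor was 2.21 in Non_agg_5 and 1.78 in Agg_8324, and 0.617 in Agg_8165, the lowest. The excitatory neuron marker SLC17A7 stood at 96.7 to 146 rescaled FPKM in Lidia and 110 to 181 in Wagyu, and was thus present in every animal.

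A value was not listed for every gene. All 22 tRNA genes, of 60 to 75 bases, were listed at 0 in all 16 animals. COX1, ATP8, ATP6 and COX3 were listed at 0 in 15 of 16 animals, and CYTB, which encodes cytochrome b, in Agg_8162 alone. The other 10 genes had a value in every animal: 12S rRNA, 16S rRNA, ND1, ND2, COX2, ND3, ND4L, ND4, ND5 and ND6.

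COX1 (MT:5687-7231), the catalytic subunit of complex IV, had its single value in Non_agg_5, at 21374 FPKM. In the same animal ATP8 (MT:8129-8329) was at 79050, ATP6 (MT:8290-8970) at 27556 and COX3 (MT:8970-9750) at 19978 FPKM. The 4 genes together made up 66.3% of the mitochondrial FPKM of Non_agg_5. ATP8 is only 201 bases long, and FPKM of a gene about as short as a sequenced fragment depends strongly on the length correction. Since these 4 genes are needed for respiration in any cortical cell, a 0 in the other 15 animals is not read as absence of the RNA. The 4 genes were left out of the comparisons of single genes. They still enter the share over all 37 genes and the scaling to an equal sum over 13 protein genes.

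**Figure D1:**
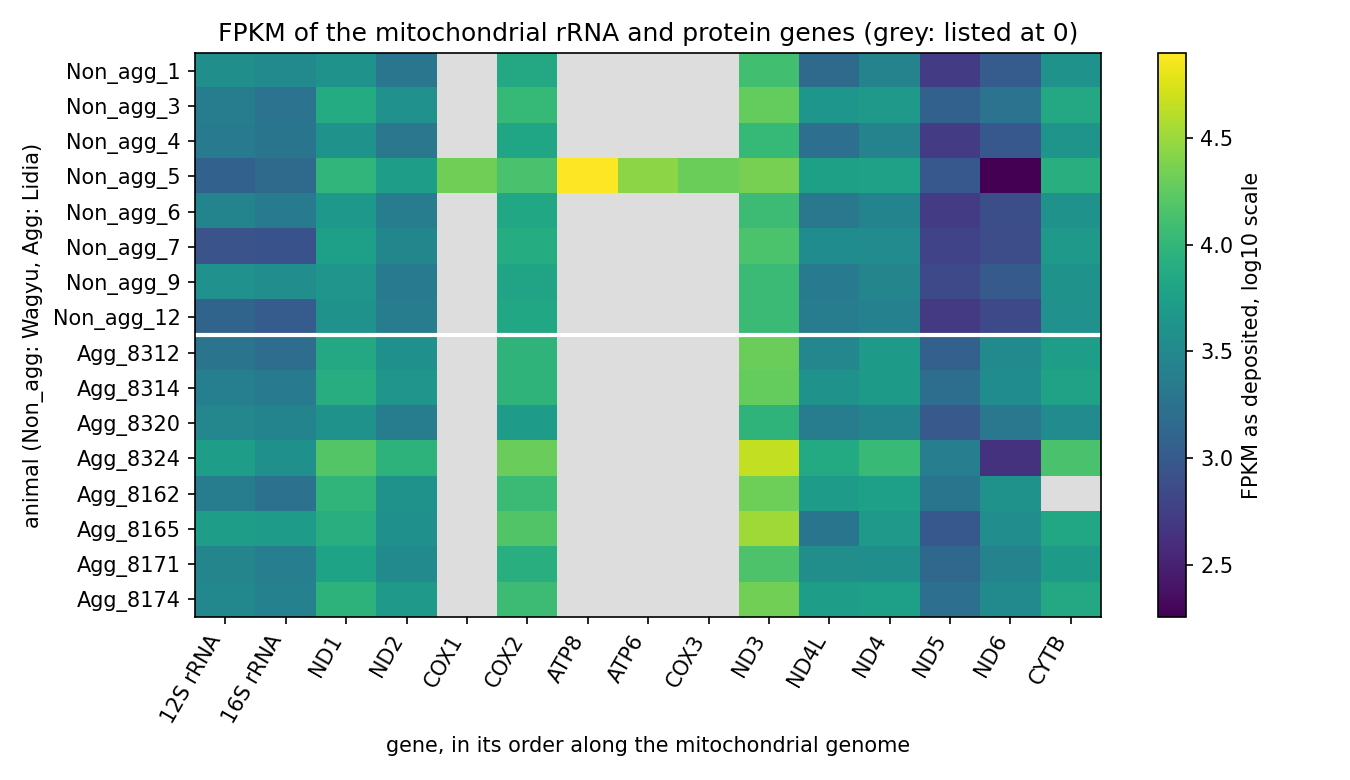
FPKM as deposited of the 2 rRNA and 13 protein genes (columns, in genome order) in the 8 Wagyu and 8 Lidia animals (rows), colour on a log10 scale, grey where the gene was listed at 0. COX1, ATP8, ATP6 and COX3 are grey in 15 of 16 animals and coloured in Non_agg_5, CYTB is grey in Agg_8162, and ND6 is darkest in Non_agg_5 and Agg_8324.

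The depth behind the listed values can be read from the bounds that were deposited with each FPKM. In a gene alone in its locus, the bounds lie 2 square roots of the count to either side, so bounds of ±0.288% for ND1 in Agg_8162 correspond to 482052 reads. That was the highest count over the 7 such genes and 16 animals, and the lowest was 13204 reads, for 12S rRNA in Non_agg_5. The bounds of these 7 genes were at most ±1.74%, small beside the spread between animals, and cover counting error only. In shared loci they were wider, at up to ±4.33% for ND5, ±4.17% for ND4, ±4.77% for ND4L and ±7.98% for ND6. The part of the locus of ND5 and ND6 assigned to ND5 ran from 0.578 in Agg_8165 to 0.966 in Agg_8324. How far that split bears on the breed difference of ND5 was not tested. Read counts from the bounds were not reconciled with the fragments given above, which rest on an assumed 200 bases each. CYTB reached 470774 reads at most. In the 7 Lidia with a CYTB value its reads were 0.923 to 1.10 times those of ND1, and 445139 to 529544 CYTB reads would follow for Agg_8162 from its own ND1. Cufflinks is known to pass over a locus whose fragments exceed a set limit and to list its genes at 0. The limit used here is not given in the sources used here, and its part in these zeros was not tested.

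Among the genes with a value in at least 15 animals, ND3 (MT:9823-10168), a small subunit of the membrane arm of complex I, had the highest FPKM. Its median was 16526 over the 16 animals. COX2 (MT:7374-8057), which holds the copper site that takes electrons from cytochrome c, followed at 8773, below ND3 in 16 of 16 animals. ND1 (MT:3101-4056), at the junction of the 2 arms of complex I, came next at 6591. It lay above CYTB (median 4909) in 13 of 15 animals, and ND4 (4308) lay above ND2 (3508) in 16 of 16. ND3 is only 346 bases long, so its rank depends on the length correction. Its median read count from the bounds, 124749, was below CYTB (249688), ND1 (239975), COX2 (226900), 16S rRNA (181193) and ND2 (137061). Of the genes alone in their locus, only 12S rRNA (120227) was lower. In Non_agg_5, ATP8 (79050) and ATP6 (27556) exceeded ND3 (22853 FPKM).

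The order was not fixed lower down. ND2 (MT:4266-5307) exceeded ND4L (MT:10239-10535; 3250) in 8 of 16 animals and ND4L exceeded 12S rRNA (2613) in 10 of 16, so these neighbours did not differ beyond their spread. 16S rRNA (2229) exceeded ND6 (1452) in 7 of 8 Wagyu and in 3 of 8 Lidia. ND5, a proton-pumping subunit, had the lowest median, 981 FPKM, and was below ND6 in 14 of 16 animals. The exceptions were Non_agg_5 and Agg_8324.

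Both genes called between breeds, ND5 and ND2, encode subunits of complex I, as do ND1, ND3, ND4, ND4L and ND6. Among the genes compared, CYTB alone stood for complex III and COX2 alone for complex IV, and complex V had no gene. The calls are therefore not read as particular to complex I. ND5 stood at 438 to 1130 rescaled FPKM in Wagyu, with a median of 568, and at 1094 to 1779 in Lidia, with a median of 1527. Only Agg_8312, the lowest of its breed, overlapped with Non_agg_3, the highest of its own, and 7 of 8 Lidia lay above every Wagyu. The log2 difference of ND5 was 1.19 ± 0.19 (SE, n = 8 and 8, limma, adjusted p = 0.00448), so ND5 was up-regulated in Lidia. In bulk tissue, more cells of a type and more RNA per cell cannot be told apart. ND5 passed in each of the 16 limma fits that left out 1 animal, with adjusted p between 7.58e-04 and 0.0126.

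ND2, which lies in the proton-pumping arm, ranged from 2036 to 3727 rescaled FPKM in Wagyu (median 2607) and from 2800 to 6123 in Lidia (median 4060). The breeds overlapped, with 5 of 8 Lidia above every Wagyu. Its log2 difference was 0.66 ± 0.18 (limma, adjusted p = 0.0433), and the call held in 5 of the 16 fits without 1 animal, with adjusted p up to 0.0944. It was lost in the other 11 fits, among them those without Non_agg_5 (adjusted p = 0.0811) and without Agg_8324 (adjusted p = 0.0855).

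Of the 11 genes with a value in at least 15 animals, thus 2 were called up-regulated and 0 down-regulated, where a call required a log2 difference of 0.1 or more and an adjusted p no higher than 0.05. Over all 16577 genes tested the same rule called 827, or 4.99%, of which 552 were higher in Lidia, 3.33% of those tested. The 10 genes with a value in every animal all had a higher mean in Lidia, except with animals scaled to an equal sum over 8 mitochondrial protein genes, which centres these genes by construction (8 of 10 then negative, with a median of -0.02 against -0.63 over all genes). Their median log2 difference was 0.65, against -0.01 over all genes tested, and 7 of the 10 had an unadjusted p under 0.05. Over all 16577 genes 3493 had such a p, 1945 of them higher in Lidia. The 10 genes share precursor RNAs and 1 scaling factor per animal, so they do not count as 10 independent results. On the FPKM as deposited 0 genes of 16614 passed in limma, 0% of those tested, with 1022 at an unadjusted p under 0.05, and ND5 stood at 1.14 with an adjusted p of 0.0852.

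Of the other complex I genes, ND1, ND4, ND4L and ND3 had log2 differences of 0.56 to 0.65 and did not pass. The log2 difference was 0.65 ± 0.21 for ND1 (limma, adjusted p = 0.0830) and 0.65 ± 0.19 for ND4 (adjusted p = 0.0645). ND1 ranged from 3931 to 7166 rescaled FPKM in Wagyu and from 4738 to 13448 in Lidia. ND4 (MT:10529-11906), in the membrane arm of complex I, ranged from 2506 to 4618 in Wagyu and from 3264 to 7899 in Lidia, with 6 of 8 Lidia above every Wagyu.

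ND4L, read from the same messenger as ND4, had a log2 difference of 0.56 ± 0.20 (limma, adjusted p = 0.119). ND3 had 0.65 ± 0.29 (adjusted p = 0.209), with 10341 to 18377 rescaled FPKM in Wagyu and 11029 to 54215 in Lidia. The top value belonged to Agg_8165, and the next Lidia, Agg_8324, was at 25436.

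ND6 had the largest difference and the widest spread. In Wagyu it ranged from 81.3 to 1751 rescaled FPKM with a median of 921, and in Lidia from 246 to 5758 with a median of 3192. Both lowest values came from the animals with few fragments, Non_agg_5 (81.3) and Agg_8324 (246). In the other 14 animals the breeds did not overlap, with 654 to 1751 in 7 Wagyu and 2437 to 5758 in 7 Lidia. The part of the locus of ND5 and ND6 assigned to ND6 was 0.197 to 0.422 in these 14 animals. It was 0.036 in Non_agg_5 and 0.034 in Agg_8324. Whether the values of the 14 hold ND6 RNA alone, apart from RNA of the opposite strand, was not tested. Over all 16 animals the log2 difference was 1.70 ± 0.64 (limma, adjusted p = 0.138). Without Non_agg_5 and Agg_8324 it was 1.71 ± 0.26 and passed (adjusted p = 0.00799), together with ND5 at 1.12 ± 0.20 (adjusted p = 0.0220), while ND2 did not (adjusted p = 0.138). Leaving out Agg_8324 alone was enough for ND6 to pass (2.17 ± 0.51, adjusted p = 0.0351), and leaving out Non_agg_5 alone was not (1.24 ± 0.52, adjusted p = 0.209). Without both animals the rule called 239 of 16453 genes, 1.45%, of which 145 were higher in Lidia, 0.881%.

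**Figure D2:**
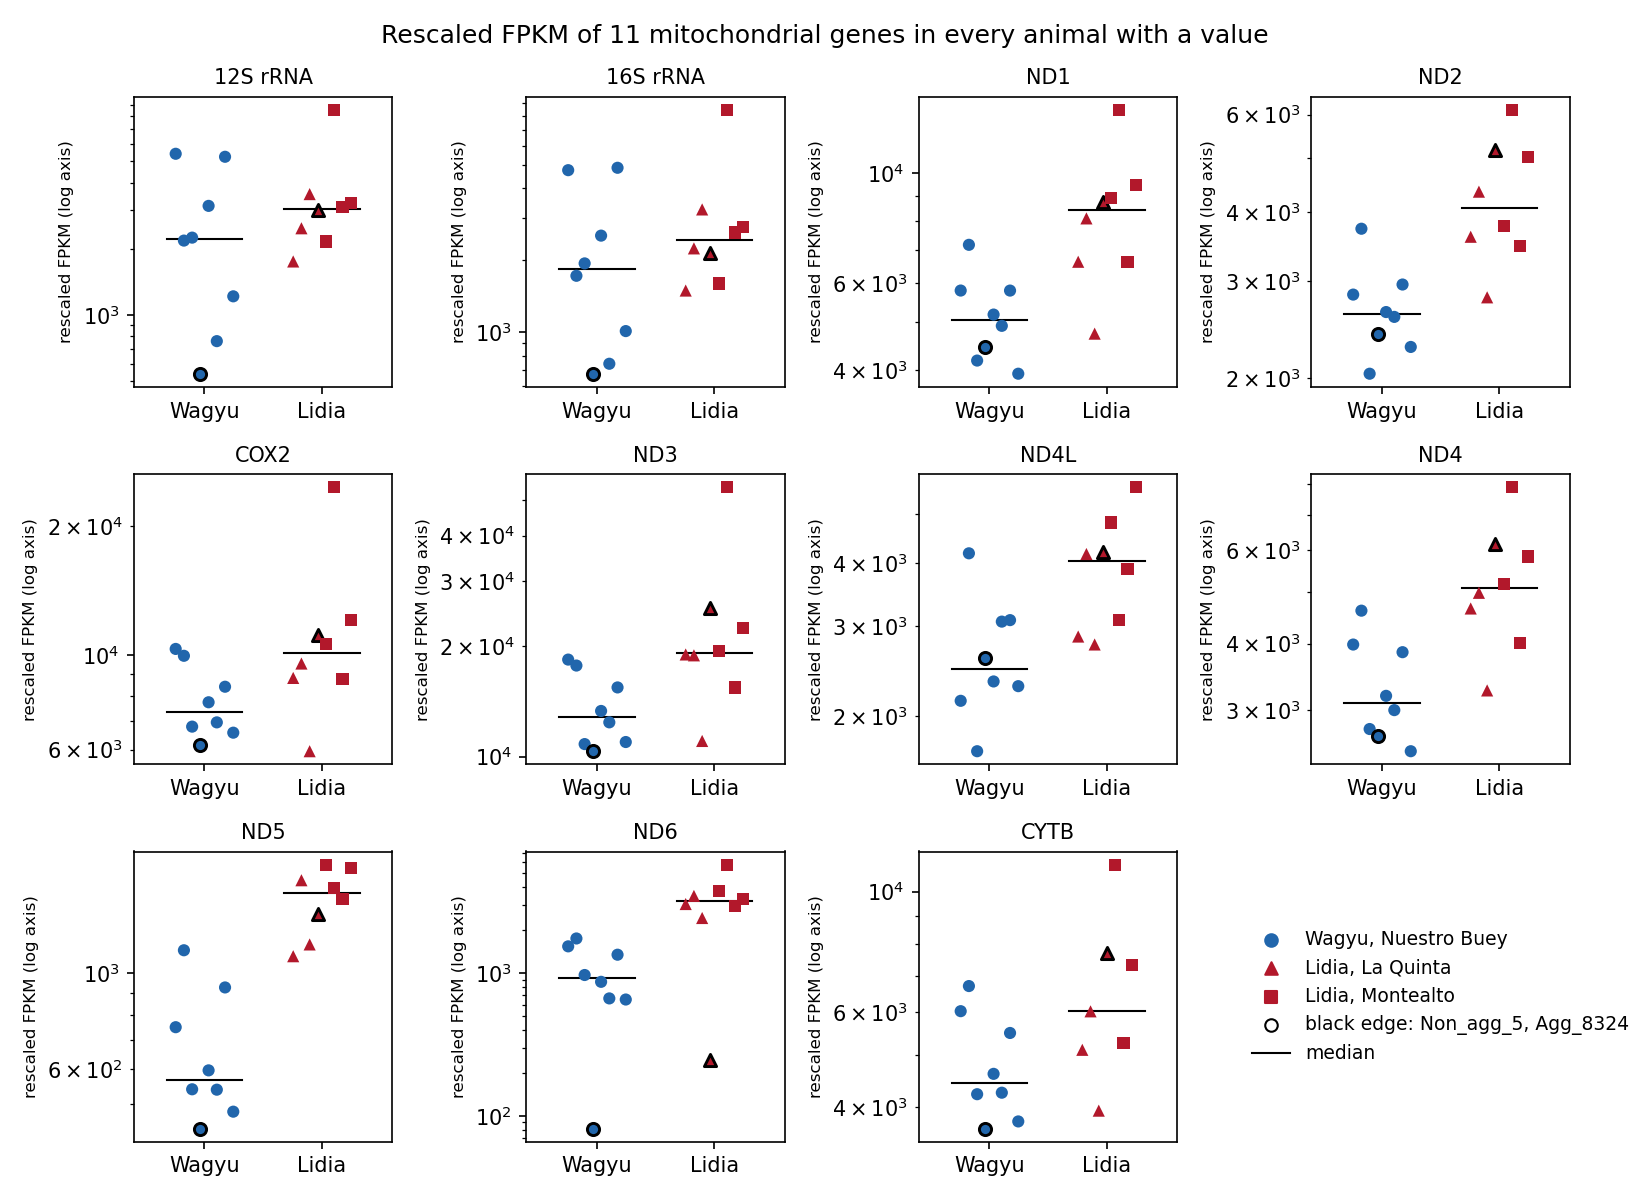
Rescaled FPKM (log axis) of the 11 genes with a value in at least 15 animals, 1 point per animal, the line at the median of each breed, black edges on Non_agg_5 and Agg_8324. For ND5, 7 of 8 Lidia lie above every Wagyu, and for ND6 the 2 animals with black edges are the lowest of their breeds at 81.3 and 246.

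The ratio of ND6 to ND5, which needs no scaling between animals, set the same 2 animals apart. It was 0.186 in Non_agg_5 and 0.179 in Agg_8324, and 1.24 to 3.67 in the other 14. Within this pair, Agg_8324 was 3.02-fold above Non_agg_5 for ND6 and 3.13-fold for ND5, a comparison of 1 animal with 1 that has no replicate. By breed, the ratio of ND6 to ND5 overlapped in the other 14 animals, at 1.24 to 2.05 in Wagyu and 1.91 to 3.67 in Lidia, with 5 of 7 Lidia above every Wagyu. The ratio of ND6 to ND1 did not overlap in these animals, at 0.136 to 0.266 in Wagyu and 0.352 to 0.514 in Lidia.

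ND6 is the only protein gene on its strand, and its locus is covered on the opposite strand by the long precursor that carries ND5 and CYTB. Unless reads are counted by strand, they cannot be told apart there, and the strand setting of the counting is not given in the sources used here. A count over all genes was made after these values were seen, for the 2 animals that ND6 had set apart. Among 11932 genes with a mean of at least 1 rescaled FPKM, 132 were more than 2-fold lower in both Non_agg_5 and Agg_8324 than in every other animal, and 0 were more than 2-fold higher. ND6 was 1 of the 132, and the only one on MT. Of the 132, 67.4% overlapped a gene annotated on the opposite strand, against 16.97% of the 11932. Whether the libraries of these animals were counted with another strand setting was not tested. Nor was the bearing of the strand setting on the breed difference of ND6 and on its ratios to ND5 and ND1.

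**Figure D3:**
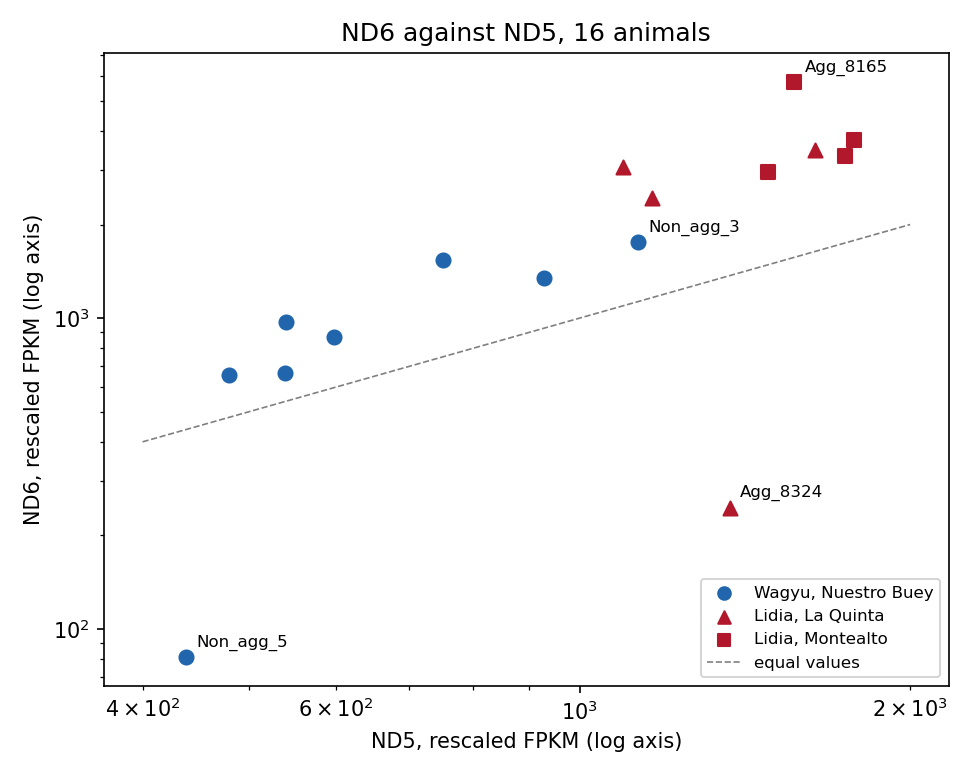
ND6 against ND5 in rescaled FPKM (both axes log), 1 point per animal, with a dashed line where both are equal. The other 14 animals lie above the line with ratios of 1.24 to 3.67, and Non_agg_5 and Agg_8324 lie below it at 0.186 and 0.179.

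For complex III and complex IV no difference was called. CYTB (MT:14514-15653) ranged from 3652 to 6696 rescaled FPKM in the 8 Wagyu, with a median of 4433, and from 3943 to 11215 in the 7 Lidia with a value, with a median of 6014. With the 0 of Agg_8162 taken as missing, an alternative chosen after seeing the data, its log2 difference was 0.42 ± 0.23 (limma, adjusted p = 0.308). With that 0 kept, it was -1.58 ± 1.84 (adjusted p = 0.663), so a single listed 0 turned its direction.

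COX2 ranged from 6163 to 10329 in Wagyu (median 7350) and from 5951 to 24705 in Lidia (median 10089). The breeds overlapped, with 4 of 8 Lidia above every Wagyu, and the log2 difference was 0.45 ± 0.25 (limma, adjusted p = 0.319), the smallest of the 10 genes with a value in every animal.

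As the ratio of highest to lowest value, the range of the rRNA genes in Wagyu was the widest after that of ND6. 12S rRNA (MT:431-1385), of the small subunit of the mitochondrial ribosome, ranged from 541 to 5408 rescaled FPKM in Wagyu (median 2215) and from 1752 to 8577 in Lidia (median 3040). 16S rRNA (MT:1453-3023), of the large subunit, ranged from 673 to 4857 (median 1832) and from 1496 to 8480 (median 2426). Their log2 differences, 0.66 ± 0.46 and 0.57 ± 0.45, were not called (limma, adjusted p = 0.442 and 0.507). Both rRNAs moved together, and the ratio of 12S to 16S was 1.01 to 1.35 in 14 animals, 0.804 in Non_agg_5 and 1.39 in Agg_8324. Their part of the FPKM of the 10 genes was 4.00% to 19.5% in Wagyu and 6.07% to 16.6% in Lidia. In a poly(A)-selected library rRNA with short tails is captured only in part, and how far its capture differed between animals was not tested.

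**Figure D4:**
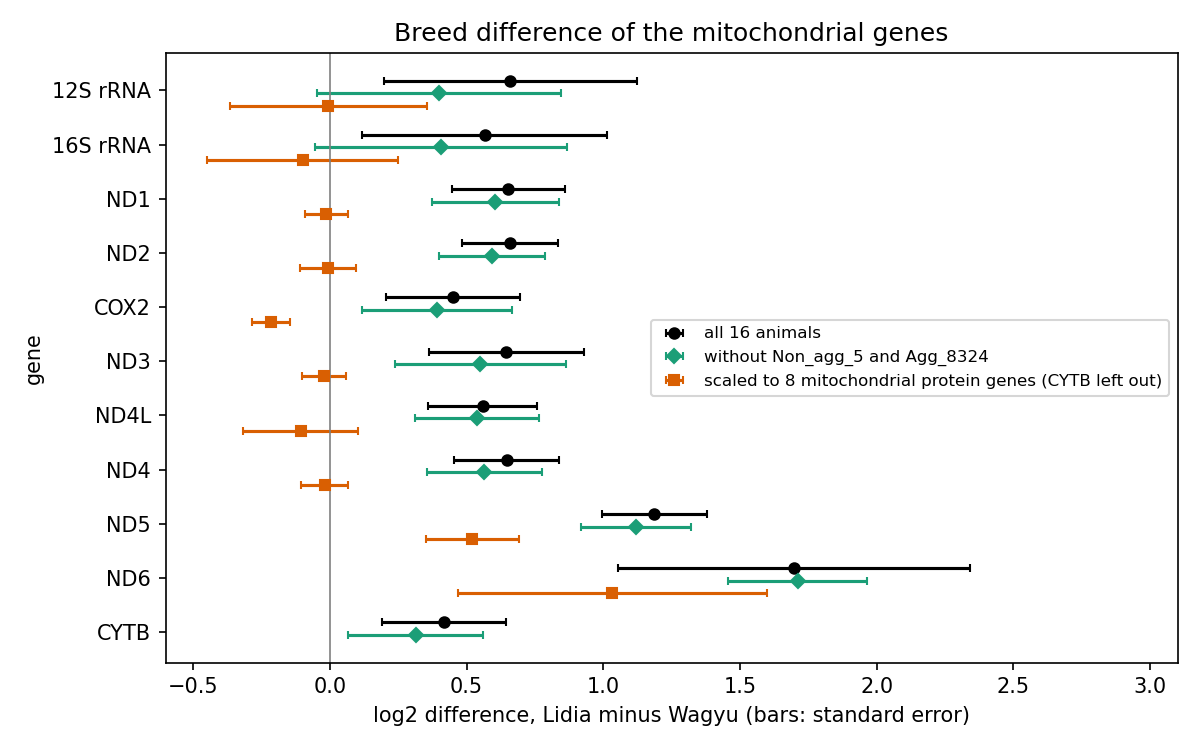
Log2 difference, Lidia minus Wagyu, with its standard error for 11 genes, from all 16 animals (black, zeros of CYTB as missing), without Non_agg_5 and Agg_8324 (green), and with animals scaled to an equal sum over 8 mitochondrial protein genes (orange). ND5 lies right of 0 in all 3, at 1.19, 1.12 and 0.52, and COX2 moves from 0.45 to -0.22 in the last.

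The make-up of the mitochondrial RNA was compared apart from its amount. Within the FPKM of the 10 genes, ND5 made up 1.34% to 2.09% in Wagyu (median 1.51%) and 1.17% to 2.87% in Lidia (median 2.59%). Of the Lidia, 5 of 8 lay above every Wagyu, and Agg_8165, at 1.17%, lay below every one. ND6 made up 1.87% to 3.24% in 7 Wagyu and 4.30% to 6.04% in 7 Lidia, with 0.268% in Non_agg_5 and 0.364% in Agg_8324. COX2 went the other way, with 16.2% to 20.6% in Wagyu (median 19.1%) and 14.5% to 18.5% in Lidia (median 16.7%), and 6 of 8 Wagyu lay above every Lidia.

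When animals were scaled to an equal sum over the 8 mitochondrial protein genes with a value in all of them, a scaling chosen after seeing the data, ND5 remained higher in Lidia at 0.52 ± 0.17 (limma, adjusted p = 0.0189) and COX2 was lower at -0.22 ± 0.07 (adjusted p = 0.0201). ND6 stood at 1.03 ± 0.56 (adjusted p = 0.115). The other genes with a value in every animal lay between -0.11 and -0.01. This scaling moved the median of all genes to -0.63 and called 58.5% of 16622 genes. Its adjusted p therefore carries little weight, and its values are read only relative to each other. With an equal sum over the 13 mitochondrial protein genes neither was called, ND5 at 0.77 (limma, adjusted p = 0.255) and COX2 at 0.03 (adjusted p = 0.924). That sum includes COX1, ATP8, ATP6 and COX3, listed at 0 in 15 of 16 animals. In Non_agg_5 they made up 66.3% of the mitochondrial FPKM. The 0 of CYTB in Agg_8162 enters it too, and the bearing of these zeros on the lost calls was not tested. The ratio of COX2 to ND5, which needs no scaling, was below every Wagyu in 7 of 8 Lidia. In Agg_8165, at 15.7, it was above every Wagyu.

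The mitochondrial share of the summed FPKM depended on the genes listed at 0. Over all 37 genes it was 17.8% to 39.3% in Wagyu (median 22.7%) and 22.2% to 38.4% in Lidia (median 28.5%), and the highest of all was Non_agg_5. Over the 10 genes with a value in every animal, with the other 27 taken out of both sides, Non_agg_5 fell to 16.3%, the second lowest of all. The range was then 16.2% to 25.2% in Wagyu (median 19.1%) and 20.6% to 36.5% in Lidia (median 27.5%), with 5 of 8 Lidia above every Wagyu. No test was made of the share.

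**Figure D5:**
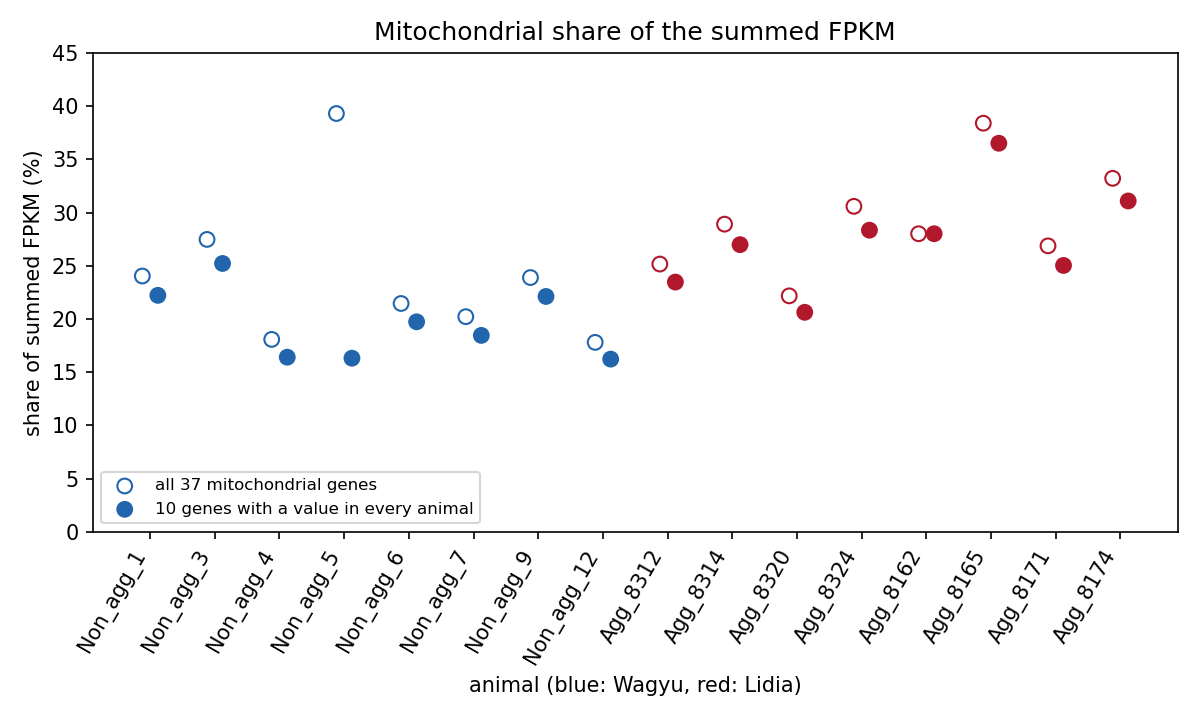
Mitochondrial share of the summed FPKM (%) in each animal, open circles for all 37 genes and filled circles for the 10 genes with a value in every animal, Wagyu in blue and Lidia in red. Non_agg_5 falls from 39.3% to 16.3%, and Agg_8162 stays at 28.01%.

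Marker genes of other cells were set side by side by breed, with no test. They could be named only through the list of differing genes that the study drew from these animals, so their direction is not independent. Summed rescaled FPKM of 5 of 6 meningeal fibroblast markers was 11.5 to 60.1 in Lidia and 4.50 to 19.7 in Wagyu, and that of 4 of 6 endothelial and mural markers was 29.6 to 107 and 15.4 to 34.1. For 3 of 6 astrocyte markers the sums were 272 to 404 and 150 to 429, for 3 of 6 microglia markers 13.2 to 26.1 and 6.33 to 14.5, and for 2 of 9 neuron markers 98.4 to 149 and 119 to 184. The 1 oligodendrocyte marker of 6, CNP, stood at 42.5 to 149 and 30.6 to 111. Of 3 erythroid markers HBB alone was named, at 0.333 to 4.93 in Lidia and 0.00 to 1.84 in Wagyu. The breeds overlapped in each of these 7 lists, and the Lidia range of the astrocyte markers lay within that of Wagyu. Their part in the mitochondrial difference was not tested. Of 103 nuclear genes for respiratory chain subunits, mitochondrial gene expression and biogenesis, 1 could be named (SDHC of complex II, 10.2 to 19.3 rescaled FPKM in Lidia and 12.9 to 18.7 in Wagyu), so the nuclear side of the pathway could not be described.

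Between the 2 Lidia farms no mitochondrial gene was called. The contrast of 4 La Quinta and 4 Montealto bulls called 15 of 16577 genes, 0.0905%, and 0 of the 11 mitochondrial genes. Of the 10 with a value in every animal, 0 had an unadjusted p under 0.05, against 977 of all 16577 genes. After rescaling all 10 had a lower mean in La Quinta, by 0.21 to 1.26 on the log2 scale, with a median of -0.45 against -0.01 over all genes tested. On the FPKM as deposited 4 of the 10 were higher in La Quinta, where the median of the 10 was -0.10 against 0.32 over all genes. Among the Lidia bulls, which all had COX1, ATP8, ATP6 and COX3 at 0, an equal sum over 13 or 8 mitochondrial protein genes centres the 10 by construction. Then 4 and 5 of the 10 were higher in La Quinta.

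ND5 was at 1094, 1638, 1165 and 1370 rescaled FPKM in La Quinta bulls Agg_8312, Agg_8314, Agg_8320 and Agg_8324, and at 1779, 1569, 1485 and 1746 in Montealto bulls Agg_8162, Agg_8165, Agg_8171 and Agg_8174. Bull Agg_8314 lay within the Montealto range and the other 3 La Quinta bulls below it. The log2 difference was -0.33 ± 0.27 (limma, adjusted p = 0.846). For COX2 the values were 8834, 9547, 5951 and 11133 in La Quinta and 10631, 24705, 8787 and 12098 in Montealto. The farms overlapped, and the log2 difference was -0.58 ± 0.33 (adjusted p = 0.828). Among the 10 genes with a value in every animal ND6 had the largest difference, -1.26 ± 0.88 (adjusted p = 0.838), which was -0.37 ± 0.36 without Non_agg_5 and Agg_8324 (adjusted p = 0.941).

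After rescaling, Agg_8165 of Montealto had the highest value of its breed in 9 of 11 genes. Its scaling factor, 0.617, was the lowest of all animals and raised its values. On the FPKM as deposited it was the highest of its breed for 16S rRNA only. Without Agg_8165 the median log2 difference between farms over the 10 genes, after rescaling, was -0.18. Set against the same Wagyu, the bulls of each farm gave ND5 at 1.02 ± 0.25 for La Quinta (limma, adjusted p = 0.0574) and 1.35 ± 0.25 for Montealto (adjusted p = 0.0392). The same fits gave ND6 at 1.07 ± 0.84 and 2.33 ± 0.66, neither called (adjusted p = 0.583 and 0.114).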

How the data were processed

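Per the labels and methods, the authors used PRINSEQ for trimming, STAR 2.7.3a for mapping to ARS-UCD1.2 (Ensembl annotation), SAMtools 0.1.18 for sorting and Cufflinks 2.2.1 for abundance. The deposited files list FPKM, its bounds and coverage for 43984 transcripts in each animal, scaled within the animal only, and each mitochondrial gene has 1 transcript. FPKM was summed per gene and rescaled by the median of ratios. The breeds were compared on log2 values, after adding 0.1, for every gene averaging 0.1 or more, by limma 3.58.1 (R 4.3.3, two-sided, variance trend, Benjamini-Hochberg over all genes). Fold changes on this scale understate low genes. The farm contrast was fitted with all 3 farm groups. Breed came from the labels and the farm of each Lidia bull from the sample table of the study. Names of the mitochondrial genes were assigned by position and names of marker genes through positions in the study's gene list.

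The members, lists and tests were chosen with earlier results of these data known, and rescaling was made the main choice because 2 animals had inflated FPKM. All 37 genes were to be accounted for, with values for the rRNAs, for the member of lowest p in each complex, for called genes and for the 5 tRNA genes of highest FPKM, which were all at 0. The test was tried on simulated data. The labels name each sample as a separate animal. Tables and figures were made with Python 3.11.15, numpy 2.4.6, pandas 2.3.3 and matplotlib. How reads that match nuclear copies of mitochondrial sequence were assigned is not given in the sources used here.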

Additional observations from a re-analysis of the deposited data

Results flagged for a closer look

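Of 51 groups of 4 to 8 animals examined for a sample far from the others, 7 gave a flag. Chance gives about 1 in 20 for independent groups. Here the farms lie within Lidia and the genes share scaling factors, so that rate does not apply to the count. All flags belonged to Agg_8324, Non_agg_5 and Agg_8165. ND6 was low at 246 rescaled FPKM in Agg_8324, within the Lidia and within La Quinta, and at 81.3 in Non_agg_5, whose ratio of ND6 to ND5 of 0.186 was also far below that of the other Wagyu. Agg_8165 was high within the Lidia for 12S rRNA at 8577 and for 16S rRNA at 8480 rescaled FPKM, and its ratio of ND6 to ND5 of 3.67 was far above that of the other Montealto bulls.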

How the results depend on the processing

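The number of called mitochondrial genes between breeds, 2 of 11, moved with the fit. It was 0 on the FPKM as deposited and with La Quinta alone against Wagyu. It was also 0 with an equal sum over the 13 mitochondrial protein genes, of which 4 were at 0 in 15 animals. It was 1 with a pseudocount of 0.01, without a filter on low values and with Montealto alone, and in each of these the gene was ND5. It was 4 with an equal sum of the FPKM outside MT and without the variance trend, and 6 with array weights. Leaving out 1 animal gave 1 to 5, with 5 (ND1, ND2, ND4, ND4L and ND5) without Non_agg_3, and 1 (ND5) without Non_agg_1, 4, 5, 6, 7, 9 or 12 or Agg_8314, Agg_8162 or Agg_8174. Between farms the count was 0 in every fit made. The equal sum over 8 protein genes, an alternative chosen after seeing the data that centres these genes by construction, turned the breed difference to -0.0051 for 12S rRNA, -0.10 for 16S rRNA, -0.0127 for ND1, -0.0061 for ND2, -0.22 for COX2, -0.0199 for ND3, -0.0195 for ND4 and -0.11 for ND4L. CYTB turned to 0.42 with its 0 as missing, 0.31 when Non_agg_5 and Agg_8324 were left out as well, and 0.23 with La Quinta alone, and leaving out 1 animal gave -1.98 to 0.42. The farm difference turned upward on the FPKM as deposited for ND2 (0.15), ND4L (0.0479), ND4 (0.10) and ND5 (0.0208), with an equal sum over the 13 protein genes (0.21, 0.11, 0.15 and 0.0783) and over 8 (0.25, 0.15, 0.20 and 0.12, and 0.0189 for ND1). That of CYTB turned to -0.45 with its 0 as missing and -0.61 without both animals as well, and leaving out 1 animal gave -0.45 to 5.16. The cause of the other changes was not tested. The difference in median share between breeds was 5.79 percentage points over all 37 genes, which include the 4 with a value in Non_agg_5 only. Other measures of the share ran from 2.18, with FPKM times length, to 8.40, over the 10 genes with a value in every animal. Leaving out 1 animal gave 4.57 to 7.01. Within the mitochondrial FPKM, the gap for ND5, 1.08 points, became 2.43 with FPKM times length, which weights genes by length. No paired analysis was possible because the animals of both breeds share no number. The comparison of nuclear respiratory chain lists was not run.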
